A study of Rattus norvegicus with 10 samples.

Results

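Most of the 28 genes described here encode proteins that move proteins or metabolites across the mitochondrial membranes, or that shape the inner membrane. All 28 were measured in the choroid plexus of rats fed a control diet or a high fat diet (HFD). They were chosen by symbol and comprised 4 genes beginning with TIMM, 5 with TOMM, 9 with SLC25, 3 with CHCHD, 3 with VDAC, 2 with PHB and 2 with MICOS, among the 2015 Ensembl identifiers that the study's gene lists named and the 32883 identifiers listed for every rat. The prefix IMMP, of the inner membrane peptidase, matched 0 of the named genes, and 0 members were left out for a symbol shared by 2 identifiers. The longer of those lists ran in order of the control mean and, in the copy used here, ended at 45.1 TPM, so that family members below this control level are not analysed here. SLC25A33, SLC25A1 and TIMM10B lay nearest to that end, at control means of 46.2, 50.8 and 53.9 TPM as deposited. The HFD mean of SLC25A33 was 44.0 TPM as deposited, so that it was admitted only through its control level.

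RNA came from the choroid plexus of the lateral and the fourth ventricles of 10 female Wistar rats, an outbred laboratory strain, at 27 weeks of age. From an age of 6 weeks, and for 21 weeks, 5 rats ate the HFD with 60% of energy from fat and 5 ate a control diet of matched nutrient sources with 10%. Each library held RNA of 1 rat, and no animals were pooled. The study took control rats from below and HFD-fed rats from above a body weight limit, so that the diet and the body weight cannot be told apart in these samples.

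Almost all mitochondrial proteins are made in the cytosol from nuclear genes. The TOM complex in the outer membrane, to which the TOMM genes belong, receives and passes them inwards, and the small TIMM chaperones and the TIM complexes carry them to or through the inner membrane. VDAC proteins are pores through which metabolites cross the outer membrane, and the SLC25 family are carriers that exchange single metabolites across the inner membrane, most of them in mitochondria. Prohibitins form a scaffold in the inner membrane, and the MICOS complex holds the narrow junctions at the base of its folds, the cristae. The choroid plexus epithelium secretes cerebrospinal fluid by active ion transport and is rich in mitochondria.

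The values are TPM, which give each gene's share of all transcripts in a library after correction for transcript length. They carry no read number, so that the sequencing depth behind each value is unknown. To bring the rats onto a common scale, a factor was taken for each rat as the median, over genes, of the ratio of its TPM to the geometric mean of the 10 rats, and TPM divided by this factor are called rescaled TPM. Control rat 1 stood apart, with a scaling factor of 0.747 against 0.944 to 1.13 in the other rats and with 1842 genes that lay more than 2-fold away from the other rats' median, where the other rats had 171 to 235 such genes each. The mean effective transcript length of its library, as the ratio of TPM to FPKM gives it, was 788.7 bases against 874 to 967.5 in the other rats, and whether the quality of that library has a part in its values was not tested. It had the highest rescaled TPM of all 10 rats in 18 of the 28 members and the lowest in 2, and many results that rest on it are given with and without it. All 12 choroid plexus epithelium markers, including TTR, FOLR1 and OTX2, were above 0 in every rat. With an unadjusted p under 0.05 by limma, KL and HTR2C were the 2 of these 12 markers that were higher on the HFD, and 0 were lower. Of the 5 endothelial and mural, 6 stromal, 4 macrophage, 4 blood and 2 adipocyte markers, 0 had such a p and none was at 0 in any rat. Without control rat 1, AQP1 was also lower among the 12 epithelial markers, at a log2 fold change of -0.18, and 2 of the other markers passed (limma, unadjusted p under 0.05). The stromal marker OGN then had a log2 fold change of -1.44 (limma, unadjusted p = 0.000213), with 10.6 rescaled TPM in control rat 1, 114 to 140 in the other control rats and 31.2 to 79.7 in HFD-fed rats. The mural marker MYL9 had a log2 fold change of 0.34 without that rat (limma, unadjusted p = 0.0264), with overlapping rats. The summed rescaled TPM of the epithelial list, led by TTR, ran from 323316 to 539170 in control rats (at most 332758 without control rat 1) and from 294694 to 411611 in HFD-fed rats. The ranges of both diets also overlapped for the other lists, with 343 to 424 against 357 to 432 for endothelial and mural markers, 1695 to 2217 against 1605 to 2318 for stromal markers, 540 to 817 against 621 to 820 for macrophage markers, 3658 to 7803 against 3102 to 6396 for blood markers and 158 to 194 against 159 to 219 for adipocyte markers, and their part in the results was not tested.

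The comparison of the diets asked whether these transcripts differ in the choroid plexus of rats that gained weight on the HFD. The differences were small, and 27 of the 28 genes had a lower fitted level in HFD-fed rats than in control rats, with log2 fold changes from -0.37 for TIMM13 to 0.02 for CHCHD3 and a median of -0.15. By limma, 0 members had a Benjamini-Hochberg adjusted p under 0.05 (adjusted p from 0.542 to 0.977), as did 0.0% of the 12198 genes tested. At an unadjusted p under 0.05, 8 members were lower on the HFD and 0 were higher, where 3.76% of all genes and 1.59% of the named genes were higher. The 8 were MICOS10 of the crista junctions, the carriers SLC25A11, SLC25A5 and SLC25A3, the prohibitins PHB and PHB2, the import chaperone TIMM13 and the pore VDAC1. In bulk tissue, fewer cells of a type and less RNA per cell cannot be told apart.

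All 28 members passed the filter on low values, at a mean rescaled TPM of 45.2 or more. The 8 lower members were 28.6% of the 28, where 4.83% of all genes tested and 13.3% of the 2015 named genes were lower at the same threshold. Of the 28 log2 fold changes, 96.4% lay below 0, against 47.3% of all genes tested and 70.5% of the named genes, and the medians were -0.15, 0.01 and -0.08. The 5 HFD-fed rats lay wholly under the 5 control rats in TIMM13, SLC25A11, PHB, PHB2 and MICOS10, which makes 17.9% of the members, against 2.02% of all genes tested and 6.8% of the named genes. The named genes are the nearer background, since they too were admitted by a high control level. Such a cut favours genes that were lower on the HFD, and all genes tested had no such cut.

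The number of members that passed moved with the scaling and with control rat 1. With TPM as deposited, 2 members (MICOS10 and TIMM13) were lower at an unadjusted p under 0.05 by limma, against 1.26% of all genes and 4.07% of the named genes. Of the 28 log2 fold changes, 21 then lay below 0, against 27.0% of all genes and 44.5% of the named genes. In 1 member, MICOS10, every HFD-fed rat lay below every control rat, as in 0.335% of all genes and 1.39% of the named genes. When control rat 1 was also left out, 6 members were lower (TIMM8B, TIMM13, SLC25A4, SLC25A5, SLC25A11 and MICOS10), against 3.06% of all genes and 10% of the named genes, and the median log2 fold change of the members was -0.11 in place of -0.04. Over all genes tested, the median log2 fold change was 0.12 before and 0.01 after rescaling, a shift of 0.10. Rescaling divides all genes of a rat by the same factor, so that it moves every log2 fold change by almost the same amount. Positions relative to a median of genes are therefore the same before and after rescaling by construction, and do not test the scaling. Of the settings compared in this paragraph, only leaving out control rat 1 can change them. Relative to the median of all genes, the median member lay at -0.16 on the log2 scale, and at -0.12 without control rat 1. The median named gene lay at -0.10 relative to all genes, and at -0.06 without control rat 1. Relative to the median named gene, the median member lay at -0.06 with and without control rat 1. With and without that rat, 27 of 28 members lay below the median of all genes, whereas 21 lay below the median named gene with control rat 1 and 23 without it.

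**Figure D1:**
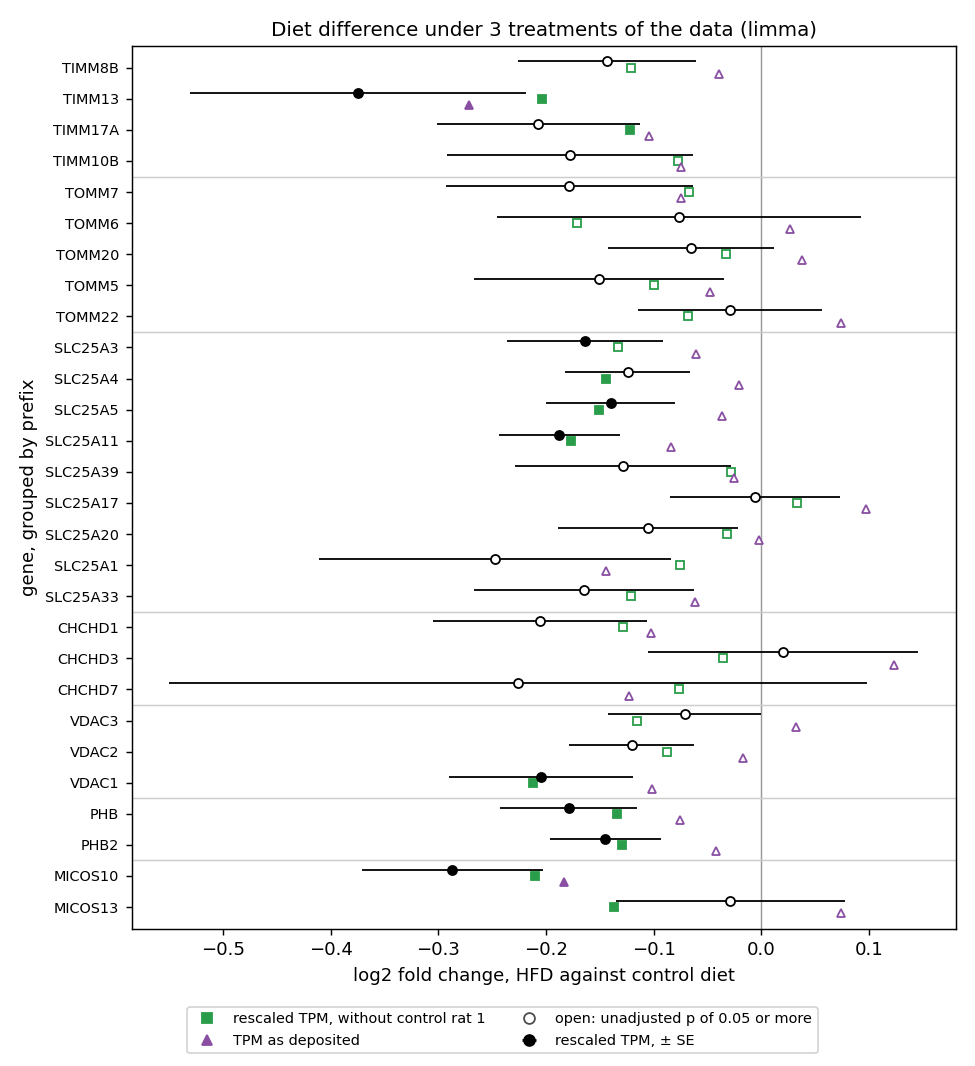
Log2 fold change of HFD-fed against control rats for each of the 28 genes (horizontal axis), grouped by prefix (vertical axis). Circles are rescaled TPM with their standard error, squares rescaled TPM without control rat 1 and triangles TPM as deposited, each from limma and filled where the unadjusted p was under 0.05. Of the circles, 27 of 28 lie left of 0 and 8 are filled, and the triangles lie to the right of the circles with 2 filled.

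The stretches upstream of 4 of the genes whose rats did not overlap between the diets are shown, and PHB is not. Whether these genes vary together was not tested. They are the RefSeq promoter windows of build GRCr8, from 250 bases before to 50 bases after the first listed start, which is not the build of the expression values (Rnor_6.0) and is used for sequence only. Of the 28 members, 26 had such a window. The 7 motifs searched on both strands were the ERR element AAGGTCA, the NRF1 site, its shorter element TGCGCA, the ETS core CCGGAAG, the YY1 site AAGATGGC, the GC box GGGCGG and the E-box CACGTG, none of which contains another. Capitals mark their matches, read on the gene's strand.
MICOS10, chr5:156650582-156650881, minus strand: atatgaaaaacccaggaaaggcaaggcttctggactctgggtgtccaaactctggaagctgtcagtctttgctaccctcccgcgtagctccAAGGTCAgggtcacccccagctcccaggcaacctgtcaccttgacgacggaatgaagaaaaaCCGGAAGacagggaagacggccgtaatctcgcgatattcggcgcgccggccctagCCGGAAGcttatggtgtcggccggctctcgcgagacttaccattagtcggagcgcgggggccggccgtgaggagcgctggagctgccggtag
PHB2, chr4:159203698-159203997, plus strand: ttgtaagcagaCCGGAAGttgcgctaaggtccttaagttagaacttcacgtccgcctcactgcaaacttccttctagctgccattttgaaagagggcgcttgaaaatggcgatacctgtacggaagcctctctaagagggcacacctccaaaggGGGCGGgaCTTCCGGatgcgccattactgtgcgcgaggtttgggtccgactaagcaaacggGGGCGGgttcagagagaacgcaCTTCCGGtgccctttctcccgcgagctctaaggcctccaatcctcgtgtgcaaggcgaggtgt
SLC25A11, chr10:55859011-55859310, minus strand: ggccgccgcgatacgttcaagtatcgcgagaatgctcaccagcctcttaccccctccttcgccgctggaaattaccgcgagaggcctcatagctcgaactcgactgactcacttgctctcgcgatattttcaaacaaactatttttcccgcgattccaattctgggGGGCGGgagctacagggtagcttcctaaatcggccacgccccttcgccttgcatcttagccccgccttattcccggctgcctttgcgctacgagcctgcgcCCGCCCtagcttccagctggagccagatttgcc
TIMM13, chr7:9459496-9459795, plus strand: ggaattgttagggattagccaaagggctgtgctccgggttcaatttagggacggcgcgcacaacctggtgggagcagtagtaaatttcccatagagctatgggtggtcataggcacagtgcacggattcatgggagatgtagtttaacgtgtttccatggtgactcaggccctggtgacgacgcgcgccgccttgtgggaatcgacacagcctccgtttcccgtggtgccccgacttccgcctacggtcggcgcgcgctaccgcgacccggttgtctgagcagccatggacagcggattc

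No motif was in all 4 windows. That of MICOS10 held 1 ERR element and 2 ETS cores, that of PHB2 held 3 ETS cores and 2 GC boxes, that of SLC25A11 held 2 GC boxes, and that of TIMM13 held none of the 7. The window of PHB, which is not shown, held 2 GC boxes. Among the 26 member windows, 12 (46.2%) held an ETS core and 19 (73.1%) a GC box, where 9.22% and 34.9% of 27457 RefSeq windows of the same length did. The ETS core was in 3 of the 8 genes with an unadjusted p under 0.05 and in 9 of the other 18. The ERR element was in 2 members (7.69%, against 4.37% of all windows), the NRF1 site in 1 (3.85%, against 0.932%), the shorter NRF1 element in 3 (11.5%, against 7.68%), the E-box in 4 (15.4%, against 6.65%) and the YY1 site in 0 (against 3.44%). The median GC content was 60% in member windows and 52.3% in all windows. All windows were taken without regard to expression, whereas the members were admitted by a high control level. How often the windows of other genes at such a level hold these motifs was not tested. A match is a run of letters and no evidence that a factor binds there.

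The levels of the members spanned from 45.2 rescaled TPM for SLC25A33 to 1041 for TOMM7, as means of the 10 rats. Since TPM are per length, these levels can be compared between genes. A few genes made up most of the signal, with TOMM7 holding 16.1% of the summed member TPM and the 5 most abundant genes (TOMM7, TIMM8B, SLC25A3, SLC25A4 and SLC25A5) holding 52.3%. Together the 28 genes made up 0.655% ± 0.0561 (SD, n = 5) of all TPM as deposited in control rats and 0.629% ± 0.0268 (SD, n = 5) in HFD-fed rats. This share ran from 0.559% to 0.691% in control rats (from 0.649% without control rat 1) and from 0.584% to 0.653% in HFD-fed rats, and the ranges overlapped. TTR, the transthyretin gene and the most abundant epithelial transcript, took 39.7% of all TPM in control rat 1, which had the lowest member share, and 32.2% to 38.2% in the other rats. Without TTR in the total, the member share was 0.997% ± 0.0482 (SD, n = 5) in control rats and 0.959% ± 0.0152 (SD, n = 5) in HFD-fed rats.

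**Figure D2:**
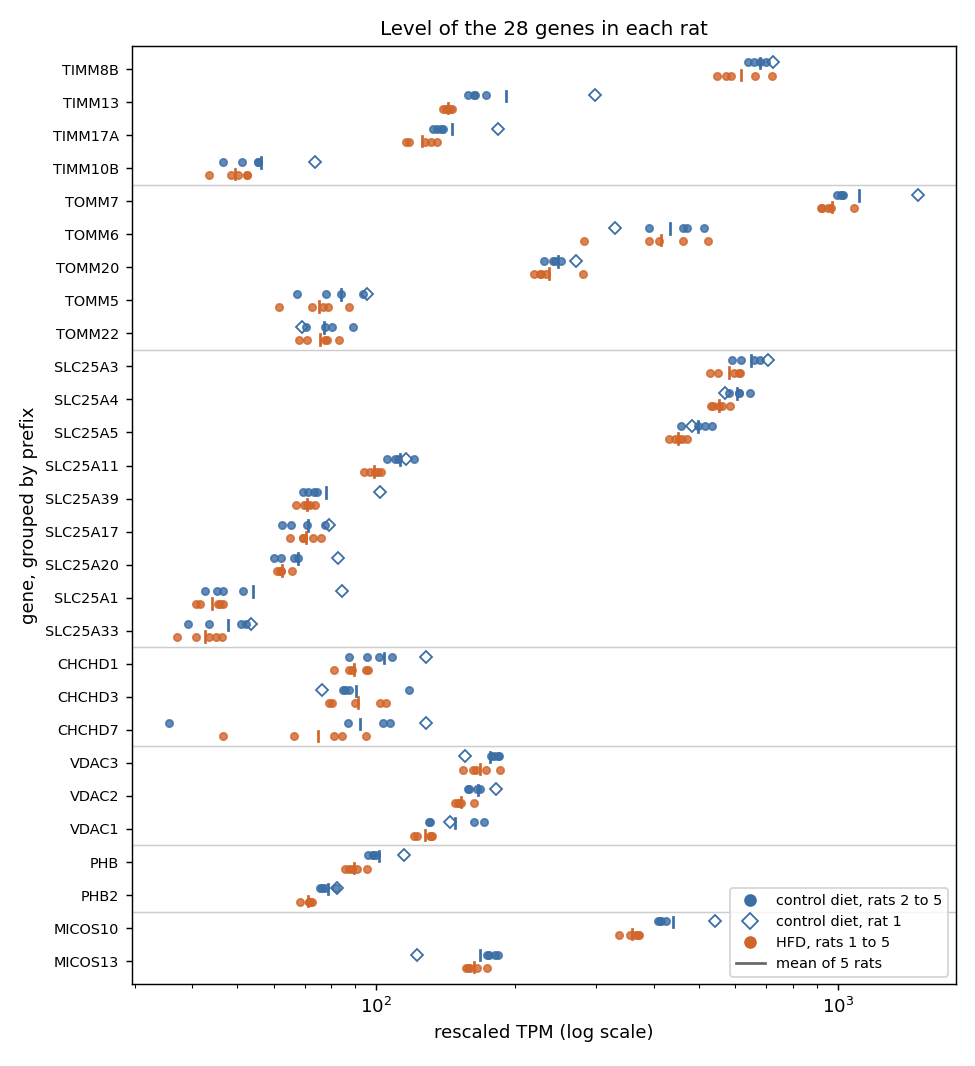
Rescaled TPM of the 28 genes in each of the 10 rats on a log axis (horizontal), grouped by prefix (vertical). Blue points are control rats, the open diamond is control rat 1, orange points are HFD-fed rats and vertical ticks are means of 5 rats. Levels run from about 45.2 for SLC25A33 to 1041 for TOMM7 as means of 10 rats, and the diamond is the highest point in 18 genes.

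Among the outer membrane import genes, 0 of 5 TOMM genes had an unadjusted p under 0.05, and their median log2 fold change was -0.08. TOMM7 (ENSRNOG00000043114), a small subunit of the TOM complex, had 1493, 1027, 1017, 1021 and 995 rescaled TPM in control rats 1 to 5 and 923, 1087, 967, 954 and 922 in HFD-fed rats 1 to 5. Control rat 1 was far above all others and HFD-fed rat 2 was above 4 of 5 control rats, so that the groups overlapped. The log2 fold change was -0.18 with a standard error of 0.11 (limma, unadjusted p = 0.148), and -0.07 without control rat 1. TOMM20, the receptor for presequences, had 248 ± 14.7 (SD, n = 5) in control rats and 237 ± 24.4 (SD, n = 5) in HFD-fed rats, and TOMM22, the central receptor, had 77.2 ± 8.07 and 75.5 ± 6.0 (SD, n = 5 each). The small subunits TOMM6 and TOMM5 had 433 ± 73.1 against 414 ± 90.1 and 83.8 ± 11.7 against 75.4 ± 9.43 (SD, n = 5 each). For these 4 genes the difference of the means was smaller than the SD of the control rats.

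Of the 4 TIMM genes, TIMM13 had an unadjusted p under 0.05 and the median log2 fold change was -0.19, or -0.12 without control rat 1. TIMM8B (ENSRNOG00000009888) was the most abundant and encodes a small chaperone of the space between the membranes. Its rescaled TPM were 723, 700, 640, 680 and 657 in control rats and 572, 719, 663, 589 and 549 in HFD-fed rats. These overlapped, with HFD-fed rat 2 above 4 of 5 control rats, and the log2 fold change was -0.14 (exact permutation test, two-sided, p = 0.127).

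TIMM13 (ENSRNOG00000019682) belongs to the same class of small chaperones. Control rats had 298, 163, 163, 173 and 158 rescaled TPM and HFD-fed rats 139, 146, 142, 141 and 145. Every HFD-fed rat lay below every control rat, also without control rat 1, which stood far above the other control rats. The log2 fold change was -0.37 with a standard error of 0.16 (limma, unadjusted p = 0.0356, adjusted p = 0.569) and -0.20 without control rat 1 (unadjusted p = 0.000528, adjusted p = 0.223). The exact permutation p was 0.00794, the smallest that 5 rats against 5 allow. The limma p was 0.0538 to 0.0631 when any 1 of the 5 HFD-fed rats was left out.

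TIMM17A, a subunit of the TIM23 channel, had 146 ± 21.05 (SD, n = 5) in control rats and 126 ± 8.60 (SD, n = 5) in HFD-fed rats, just outside the threshold (limma, unadjusted p = 0.051, and 0.0494 without control rat 1), and 183 in control rat 1 against 133 to 140 in the other control rats. TIMM10B, of the TIM22 complex that inserts carriers into the inner membrane, had 56.4 ± 10.3 against 49.4 ± 3.76 (SD, n = 5 each). Control rat 1 had 73.6 of it against 46.6 to 55.4 in the other control rats. The log2 fold change of TIMM10B was -0.18 with and -0.08 without that rat.

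Among the outer membrane pores, VDAC1 was lower at an unadjusted p under 0.05, and VDAC2 and VDAC3 were not. VDAC3 (ENSRNOG00000019277) was the most abundant, with 156, 180, 184, 178 and 185 rescaled TPM in control rats and 162, 185, 165, 173 and 154 in HFD-fed rats. The groups overlapped fully (exact permutation p = 0.310), and control rat 1 was the lowest control rat here. VDAC1 (ENSRNOG00000006375) had 144, 171, 163, 131 and 130 in control rats and 121, 132, 132, 123 and 131 in HFD-fed rats. Control rats 4 and 5 lay within the range of the HFD-fed rats, and the other 3 control rats lay above it. The log2 fold change was -0.20 with a standard error of 0.09 (limma, unadjusted p = 0.0367), whereas the exact permutation p was 0.0714. Leaving out control rat 2 gave a log2 fold change of -0.15, and the limma p was 0.0502 to 0.0911 in 5 of the 10 fits without 1 rat, those without control rat 2 or 3 or HFD-fed rat 1, 4 or 5. VDAC2 had 166 ± 9.61 in control rats and 153 ± 5.82 in HFD-fed rats (SD, n = 5 each), and the rats overlapped (exact permutation p = 0.0238). The ratios of VDAC1 to VDAC2 and to VDAC3 within a rat, which do not depend on the scaling, were 0.892 ± 0.131 against 0.835 ± 0.0347 and 0.842 ± 0.112 against 0.764 ± 0.0588 (SD, n = 5 each; exact permutation p = 0.421 and 0.230).

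Of the 9 SLC25 carriers, 3 were lower at an unadjusted p under 0.05, 0 were higher, and all 9 log2 fold changes lay below 0, from -0.25 to -0.01, although that of SLC25A17 was 0.10 with TPM as deposited and, in rescaled TPM, 0.03 when control rat 1 was left out. SLC25A3 (ENSRNOG00000008289), which brings in phosphate for ATP synthesis, had 707, 679, 618, 658 and 589 rescaled TPM in control rats and 596, 614, 611, 529 and 550 in HFD-fed rats. Control rat 5 lay below 3 HFD-fed rats, and the other control rats lay above all 5. By limma, the log2 fold change of SLC25A3 was -0.16 with a standard error of 0.07 (unadjusted p = 0.0447). Of the 10 fits without 1 rat, 6 gave a limma p of 0.0586 to 0.113, those without control rat 1, 2 or 4 or HFD-fed rat 1, 4 or 5. Without control rat 1 the log2 fold change was -0.13 (limma, unadjusted p = 0.0629).

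SLC25A4 and SLC25A5 encode the ADP/ATP carriers that exchange ADP from the cytosol for ATP. SLC25A5 (ENSRNOG00000039980) had 483, 535, 516, 498 and 458 in control rats and 444, 471, 459, 452 and 431 in HFD-fed rats. Control rat 5 lay within the HFD range and the other 4 control rats above it. For SLC25A5 the log2 fold change was -0.14 with a standard error of 0.06 (limma, unadjusted p = 0.0393, 0.0571 to 0.0941 in 7 of the 10 fits without 1 rat, those without control rat 2, 3 or 4 or HFD-fed rat 1, 3, 4 or 5). SLC25A4 had 604 ± 30.0 (SD, n = 5) in control rats and 554 ± 21.5 (SD, n = 5) in HFD-fed rats, a log2 fold change of -0.12 (limma, unadjusted p = 0.0562, and 0.0143 without control rat 1). The ratio of SLC25A4 to SLC25A5 was 1.21 ± 0.0351 in control rats and 1.23 ± 0.0239 in HFD-fed rats (SD, n = 5 each; exact permutation p = 0.492), so that no shift between the 2 carriers was detectable.

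SLC25A11 (ENSRNOG00000003815) exchanges malate for oxoglutarate and takes part in the malate-aspartate shuttle. Its rescaled TPM were 116, 121, 112, 110 and 105 in control rats and 97.1, 99.5, 101, 94.3 and 102 in HFD-fed rats. All HFD-fed rats lay below all control rats, and control rat 1 was not the highest. Its log2 fold change was -0.19 with a standard error of 0.06 (limma, unadjusted p = 0.00676, adjusted p = 0.542; exact permutation p = 0.00794), with a p of 0.0199 or less in each of the 10 fits without 1 rat. TPM as deposited gave a log2 fold change of -0.08 (limma, unadjusted p = 0.432), which was -0.17 without control rat 1 (limma, unadjusted p = 0.0407).

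The other 5 carriers had a limma p above 0.05. The citrate carrier SLC25A1 had 54.0 ± 17.2 against 44.1 ± 2.69 (SD, n = 5 each), with 84.2 in control rat 1 and 42.7 to 51.4 in the other control rats, and a log2 fold change of -0.25 with and -0.08 without that rat. SLC25A20, which carries acylcarnitines for fatty acid oxidation, had 67.8 ± 8.83 against 62.6 ± 1.83 (SD, n = 5 each), with 82.6 in control rat 1 and 60.04 to 67.8 in the other control rats. SLC25A39, needed for the import of glutathione, had 78.0 ± 13.5 against 70.7 ± 2.50, and SLC25A33, a carrier of pyrimidine nucleotides, had 47.9 ± 6.27 against 42.5 ± 3.76 (SD, n = 5 each). For SLC25A39, control rat 1 had 102 against 69.5 to 74.5 in the other control rats. Its log2 fold change was -0.13 with and -0.03 without that rat. SLC25A17, a carrier of the peroxisome and not of mitochondria, had 71.0 ± 7.17 against 70.5 ± 4.08 (SD, n = 5 each), with a log2 fold change of -0.01.

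Both prohibitins were lower at an unadjusted p under 0.05, with no overlap between the diets. PHB (ENSRNOG00000046799) had 115, 99.8, 98.3, 98.5 and 96.2 rescaled TPM in control rats and 85.4, 95.4, 90.7, 88.8 and 87.3 in HFD-fed rats. PHB2 (ENSRNOG00000012999) had 82.1, 75.6, 82.0, 77.6 and 76.5 in control rats and 71.9, 72.6, 71.5, 68.5 and 71.5 in HFD-fed rats. The gap between the lowest control rat and the highest HFD-fed rat was narrow in each, 96.2 to 95.4 for PHB and 75.6 to 72.6 for PHB2. The log2 fold changes were -0.18 for PHB and -0.14 for PHB2, with standard errors of 0.06 and 0.05 (limma, unadjusted p = 0.0176 and 0.0170, adjusted p = 0.542 for both; exact permutation p = 0.00794 for both). Without control rat 1 they were -0.13 and -0.13, still with no overlap, and the limma p was 0.0445 or less in every fit without 1 rat. TPM as deposited gave -0.08 and -0.04 (limma, unadjusted p = 0.350 and 0.687), with overlapping rats, and -0.12 for each when control rat 1 was also left out (limma, unadjusted p = 0.0587 and 0.118). The ratio of PHB to PHB2, whose proteins pair in 1 complex, was 1.29 ± 0.0746 in control rats and 1.26 ± 0.0523 in HFD-fed rats (SD, n = 5 each; exact permutation p = 0.484).

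MICOS10 (ENSRNOG00000042696), a core subunit that bends the membrane at crista junctions, had the smallest p of the 28 genes. Its rescaled TPM were 542, 414, 412, 425 and 408 in control rats and 364, 369, 370, 336 and 354 in HFD-fed rats. Every HFD-fed rat lay below every control rat, with 370 the highest on the HFD and 408 the lowest on the control diet. Its log2 fold change was -0.29 with a standard error of 0.08 (limma, unadjusted p = 0.00598, adjusted p = 0.542), and -0.21 without control rat 1 (limma, unadjusted p = 0.000666, adjusted p = 0.231). The groups also did not overlap with TPM as deposited, at 422 ± 14.0 against 372 ± 23.5 (SD, n = 5 each), and the log2 fold change was -0.18 (limma, unadjusted p = 0.0144).

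MICOS13, another subunit of the complex, had 168 ± 25.3 in control rats and 163 ± 6.93 in HFD-fed rats (SD, n = 5 each), with a fitted log2 fold change of -0.03. Control rat 1 was the lowest of all 10 rats for it, at 123 against 174 to 184 in the other control rats, and without that rat the log2 fold change was -0.14 with no overlap (limma, unadjusted p = 0.0115; exact permutation p = 0.0159). The ratio of MICOS10 to MICOS13 was 4.41 in control rat 1, 2.25 to 2.37 in the other control rats and 2.13 to 2.32 in HFD-fed rats. Over 8 such ratios it had the smallest exact permutation p, 0.0159 (Benjamini-Hochberg adjusted p = 0.127), with a log2 difference of -0.26, which was -0.07 without control rat 1 (exact permutation p = 0.0397). The p was 0.0873 to 0.206 without any 1 of the HFD-fed rats.

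**Figure D3:**
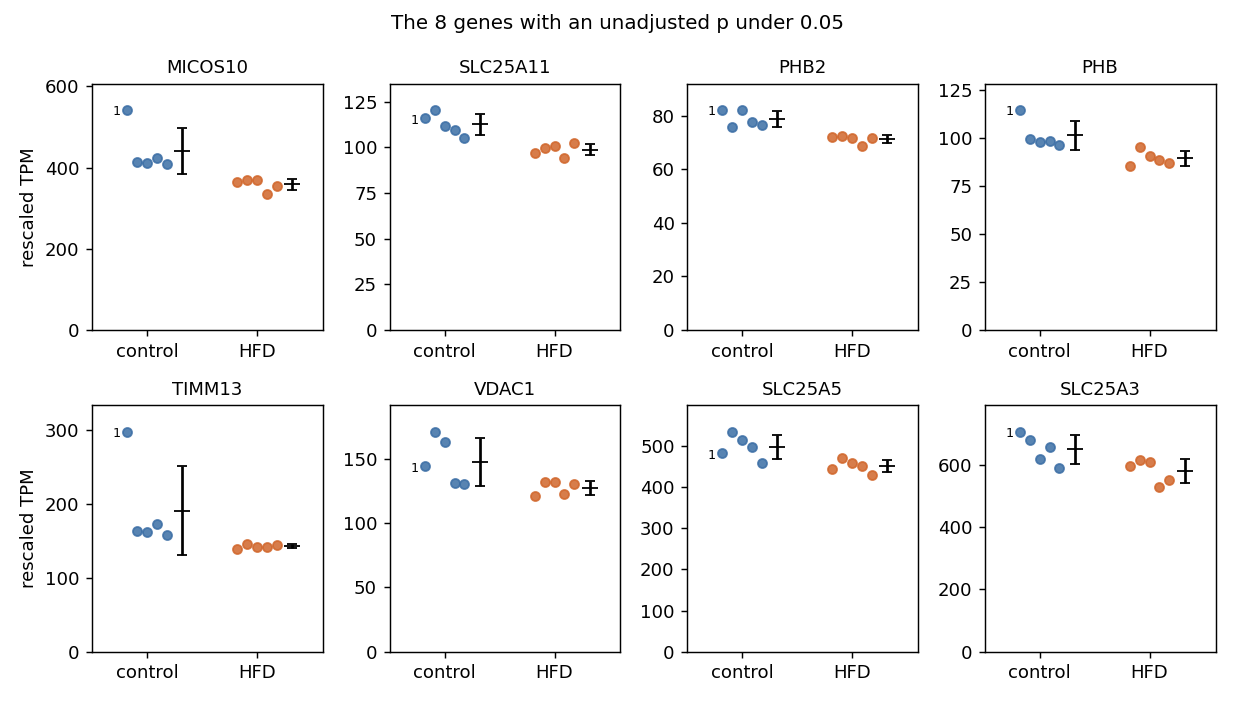
Rescaled TPM (vertical axis, from 0) of the 8 genes with an unadjusted p under 0.05 in each of 5 control (blue) and 5 HFD-fed rats (orange), with the mean and SD of each diet in black and control rat 1 marked by the digit 1. The groups do not overlap in MICOS10, SLC25A11, PHB2, PHB and TIMM13, and control rat 1 is far above the other control rats in MICOS10 and TIMM13.

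The 3 CHCHD genes encode small proteins with paired cysteine motifs that are imported into the space between the membranes or beyond, and 0 had an unadjusted p under 0.05. CHCHD1 (ENSRNOG00000009297), a protein of the mitochondrial ribosome, had 128, 95.4, 102, 108 and 87.3 rescaled TPM in control rats and 87.3, 95.3, 95.8, 88.8 and 81.0 in HFD-fed rats. Control rats 2 and 5 lay within the HFD range, and the log2 fold change was -0.21 (limma, unadjusted p = 0.0638), or -0.13 without control rat 1. CHCHD3, a subunit of MICOS, had 90.4 ± 16.0 against 91.3 ± 12.1 (SD, n = 5 each) and the only log2 fold change above 0, which was -0.04 without control rat 1. CHCHD7 varied most between rats, from 35.6 to 128 in control rats and from 46.6 to 95.0 in HFD-fed rats. Its log2 fold change was -0.23 with and -0.08 without control rat 1.

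The spread between rats was wider with control rat 1 than without it. The median coefficient of variation of the 28 genes was 13.01% in control rats, 5.66% in control rats without rat 1 and 6.34% in HFD-fed rats. Without control rat 1, 10 members were lower at an unadjusted p under 0.05, against 6.26% of all genes and 17.0% of the named genes. The same fit left 6 members without overlap between the diets, the earlier 5 and MICOS13, against 2.73% of all genes and 8.78% of the named genes. MICOS10, SLC25A11, PHB and PHB2 kept their p under 0.05 in each of the 10 fits without 1 rat. The members that passed numbered 4 without HFD-fed rat 1, 4 or 5 and 11 without HFD-fed rat 2. RSEM can divide reads between a gene and its processed copies, and RefSeq names 19 pseudogenes of PHB, 15 of VDAC1, 9 of SLC25A5, 8 of SLC25A39 and 5 of VDAC2, so that the levels of these genes are less certain than those of TIMM13 and SLC25A11, for which it names 0.

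Genes that work beside the members but lie outside the prefixes were taken from 3 lists by role, with 28 genes in all. Of these, 7 were lower on the HFD at an unadjusted p under 0.05 by limma, 0 were higher and 0 had an adjusted p under 0.05, with a median log2 fold change of -0.13. The share of lower genes was 4.83% among all genes tested and 13.3% among the named genes. The lower genes by role were 2 with TPM as deposited, PAM16 and COX17, against 1.26% of all genes and 4.07% of the named genes, and 12 without control rat 1, against 6.26% and 17.0%. They were 6 with TPM as deposited and control rat 1 left out, against 3.06% and 10%.

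Among 10 companions of import, 3 were lower. HSPE1 (ENSRNOG00000051624), the small partner of the chaperonin that folds imported proteins, had 633, 601, 704, 665 and 628 rescaled TPM in control rats and 532, 539, 557, 539 and 522 in HFD-fed rats. No HFD-fed rat reached the lowest control rat, and control rat 1 was the third highest of the 10. The log2 fold change was -0.26 with a standard error of 0.06 (limma, unadjusted p = 0.00102, adjusted p = 0.542), and -0.27 without control rat 1. PAM16, of the motor that pulls proteins into the matrix, had 223 ± 48.6 against 172 ± 13.5, and SAMM50, which inserts barrel proteins such as VDAC into the outer membrane, had 68.9 ± 6.26 against 60.6 ± 1.46 (SD, n = 5 each). Neither overlapped between the diets, and the log2 fold changes were -0.35 and -0.18, or -0.23 and -0.13 without control rat 1. HSPA9, the matrix chaperone that drives the motor, had 197 ± 44.8 against 216 ± 17.01 (SD, n = 5 each), with 118 in control rat 1, and a log2 fold change of 0.17 with and -0.01 without that rat. HSPD1, the large chaperonin partner of HSPE1, had a log2 fold change of 0.03 with and -0.08 without control rat 1, in which it had 84.5 against 118 to 126 in the other control rats.

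Among 8 carriers and channels, 2 were lower. SMDT1, a subunit of the mitochondrial calcium uniporter, had 392 ± 12.6 in control rats and 318 ± 30.8 in HFD-fed rats (SD, n = 5 each) without overlap, a log2 fold change of -0.31 (limma, unadjusted p = 0.00132). It is on the list of genes that the study selected on these samples, so that its direction is not independent evidence. MTCH1, a carrier homologue of the outer membrane, had 437 ± 36.4 against 375 ± 26.5 (SD, n = 5 each). The pyruvate carrier subunits MPC1 and MPC2 had log2 fold changes of -0.15 and -0.11, and UCP2, an uncoupling protein of the same family as the SLC25 carriers, had 112 ± 37.7 against 109 ± 13.2 (SD, n = 5 each) and 174 in control rat 1, with a log2 fold change of 0.02 with and 0.19 without that rat.

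Among 10 genes of membrane shape and scaffolds, 2 were lower, COX17 (374 ± 78.4 against 304 ± 28.7) and MFF (136 ± 12.5 against 119 ± 5.44; SD, n = 5 each). COX17 is a copper chaperone for cytochrome oxidase and MFF an outer membrane receptor for mitochondrial fission, so that neither is a scaffold of the inner membrane. For COX17 the limma p of 0.0492 was 0.0612 to 0.109 in 6 of the 10 fits without 1 rat, those without control rat 2 or 4 or HFD-fed rat 1, 3, 4 or 5, and for MFF the p of 0.0271 was 0.0513 to 0.06 without HFD-fed rat 1, 4 or 5. Without control rat 1 the log2 fold change of COX17 was -0.16. IMMT, the large core subunit of MICOS, had 78.2 ± 12.3 against 78.7 ± 3.88 (SD, n = 5 each), with 56.6 in control rat 1 and 81.6 to 87.8 in the other control rats, and a log2 fold change of 0.02 with and -0.09 without that rat.

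**Figure D4:**
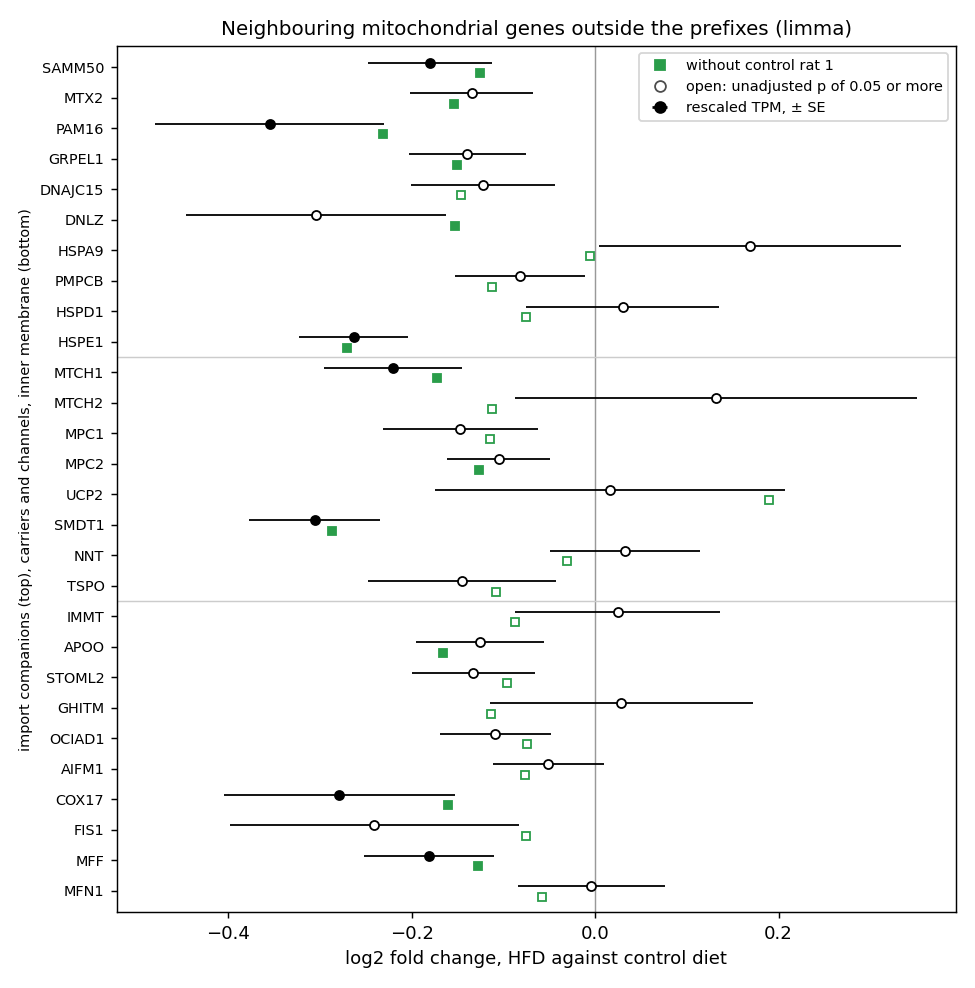
Log2 fold change of HFD-fed against control rats (horizontal axis) for 28 genes outside the prefixes, in 3 lists by role (vertical axis). Circles are rescaled TPM with their standard error and squares the same without control rat 1, each from limma and filled where the unadjusted p was under 0.05. Of the circles, 7 are filled and all 7 lie left of 0, and 12 squares are filled.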

How the data were processed

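RNA sequencing covered the choroid plexus of 10 rats, 5 on each diet, with 1 library per rat (NEB Next Ultra kit, paired-end reads of 150 bases). Reads were aligned by the authors with STAR, given as 2.7.2a in the submitters' processing notes and as another version in the study's methods, to Rnor_6.0 (Ensembl release 104) and quantified with RSEM 1.3.3. The deposited values are TPM and FPKM with 2 decimals for each Ensembl gene. In every rat the authors' FPKM and TPM differ by 1 factor (largest CV of the ratio 4e-05), and TPM alone were tested. The strand setting is not given in the sources used here. The authors' own test used raw counts and DESeq2, which were not used here, and columns of the authors' comparisons were not used.

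TPM were rescaled per rat by the median ratio to the geometric mean over 12037 genes. limma 3.58.1 (R 4.3.3; lmFit, eBayes with trend, diet as the only term) was fitted to log2(rescaled TPM + 0.1) of 12198 genes with a mean of at least 1. Fold changes refer to this log2 scale, on which the change of a low gene comes out too small. Benjamini-Hochberg adjustment ran over all genes tested, and the threshold was 0.05. Single genes and ratios within a rat were compared by two-sided exact permutation tests over 252 assignments. TPM carry no read number, so that no counting error can be given. Scripts ran under python 3.11.15 with pandas 2.3.3, matplotlib 3.10.9, scipy 1.17.1 and numpy 2.4.6.

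The members, the 28 genes by role and the marker lists were chosen with earlier results of these data known, and the rule for named genes was values in every rat for members with an unadjusted p under 0.05 and for the most abundant member of each prefix, with means or ranges for the rest. Of the genes by role, those with an unadjusted p under 0.05 and UCP2, MPC1, MPC2, IMMT, HSPA9 and SAMM50 were to be named. HSPD1 was named after its values were seen. Alternatives covered the scaling, the pseudocount, the filter, the variance model, weights, a replicate block and leaving out each rat. The rule left 7 symbols held by more than 1 identifier out of the naming.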

Additional observations from a re-analysis of the deposited data

Results flagged for a closer look

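Within a diet, a value was singled out where the gap between the highest or lowest rat and its nearest neighbour exceeded Dixon's limit for 5 rats, 0.71 of the group's range. Of 100 groups of 5 values looked at, 25 passed this limit, where chance gives about 1 in 20, or 5. Control rat 1 accounted for 19 of the 25.

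Among the members, control rat 1 was far above the other control rats in 7 genes. It had 298.0 rescaled TPM of TIMM13 against 158.4 to 173.3, 183.3 of TIMM17A against 132.9 to 139.9 and 1493 of TOMM7 against 994.9 to 1027. It also had 101.9 of SLC25A39 against 69.52 to 74.48, 84.21 of SLC25A1 against 42.66 to 51.43, 114.7 of PHB against 96.25 to 99.8 and 541.7 of MICOS10 against 408.4 to 424.7. In 2 members it was far below them, with 155.6 of VDAC3 against 177.6 to 184.7 and 122.9 of MICOS13 against 173.9 to 184.0.

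The same rat was high among the other genes by role, with 79.88 of SAMM50 against 64.39 to 67.86, 309.0 of PAM16 against 192.3 to 208.0, 244.7 of MPC1 against 217.2 to 219.5 and 511.5 of COX17 against 317.8 to 352.0. It was low in HSPA9, at 118.0 against 208.3 to 226.1, in HSPD1, at 84.48 against 117.7 to 125.7, and in IMMT, at 56.59 against 81.55 to 87.78. Its ratios within the rat also stood apart, which the scaling cannot change, at 0.4125 for TIMM13 to TIMM8B against 0.2336 to 0.255, 4.41 for MICOS10 to MICOS13 against 2.249 to 2.368 and 4.541 for TOMM7 to TOMM6 against 2.002 to 2.619.

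The other 6 were single genes. HFD-fed rat 2 was high in TOMM7 (1087 against 922.0 to 966.9), TOMM20 (280.3 against 220.2 to 233.2), SLC25A20 (65.74 against 60.89 to 62.29) and VDAC2 (163.0 against 148.3 to 152.5). Control rat 3 was high in CHCHD3 (118.0 against 76.53 to 87.26), and HFD-fed rat 4 was low in PHB2 (68.5 against 71.45 to 72.55).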

How the results depend on the processing

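Of 588 values of single members over 21 alternatives of the limma fit, 506 kept their direction and their side of the threshold, 39 lost an unadjusted p under 0.05, 22 gained it and 21 changed sign, in 7 members. MICOS10 kept its p under 0.05 in 21 of 21 alternatives, SLC25A11 in 20, PHB and PHB2 in 19, TIMM13 in 16, SLC25A5 and VDAC1 in 12 and SLC25A3 in 10, and none of these 8 changed sign.

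With TPM as deposited, the genes with an unadjusted p under 0.05 numbered 624 and not 1048, the lower members 2 and not 8, the genes by role 2 and not 7, the members with an exact permutation p under 0.05 2 and not 10, the members without overlap 1 and not 5 (2 without control rat 1), and the median log2 fold change of the members was -0.045 and not -0.148. For the exact permutation test no share over all genes was computed, so that the 2 and 10 members have no background here. The same holds for the 2 members without overlap when control rat 1 was also left out. A mean rescaled TPM of at least 10 left 619 genes with an unadjusted p under 0.05 in a smaller number tested. Without the filter 1 gene had an adjusted p under 0.05. Without the mean-variance trend 5 members were lower, and 1001 genes had an unadjusted p under 0.05 in either direction. How many of those genes were lower is not given. Array weights gave 1874 genes at an unadjusted and 3 at an adjusted p under 0.05. They also gave 13 lower members, where 8.2% of all genes were lower, and 15 genes by role with an unadjusted p under 0.05. The cause of these changes was not tested.

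Over the 10 fits without 1 rat, the lower members ranged from 4 to 11, the genes by role from 5 to 12, the members with an exact permutation p under 0.05 from 7 to 13, the members without overlap from 5 to 9 (9 without HFD-fed rat 2), the ratios with such a p from 0 to 1 and all genes with an unadjusted p under 0.05 from 794 to 1434. The share of all genes with an exact permutation p under 0.05 is not given here.

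Signs turned in the following genes. With TPM as deposited the log2 fold changes were 0.027 for TOMM6, 0.038 for TOMM20, 0.074 for TOMM22, 0.097 for SLC25A17, 0.032 for VDAC3 and 0.074 for MICOS13. With array weights they were 0.029 for SLC25A17, -0.015 for CHCHD3, -0.008 for HSPA9, -0.061 for HSPD1 and -0.089 for IMMT. With TPM as deposited and control rat 1 left out, an alternative added after the data were seen, as were those of the members without overlap, they were 0.044 for SLC25A17, -0.025 for CHCHD3, -0.064 for HSPD1 and -0.077 for IMMT. Leaving out 1 rat in turn gave ranges of -0.171 to 0.054 for TOMM6, -0.068 to 0.023 for TOMM22, -0.05 to 0.033 for SLC25A17, -0.036 to 0.12 for CHCHD3, -0.137 to 0.009 for MICOS13, -0.006 to 0.228 for HSPA9, -0.075 to 0.068 for HSPD1, -0.103 to 0.19 for UCP2, -0.088 to 0.07 for IMMT, -0.098 to 0.035 for the log2 ratio of TOMM20 to TOMM22 and -0.227 to 0.104 for that of TOMM7 to TOMM6.

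The deviations of rats with the same replicate number had correlations of -0.038 to 0.116, and the rats were treated as unpaired. Rats with different numbers were not set beside them, so that a pairing by number was not tested. With a replicate block, 1141 genes had an unadjusted p under 0.05 in either direction and 0 an adjusted p under 0.05. Under that fit 7 members were lower, and 5 genes by role had an unadjusted p under 0.05. The share of all genes that was lower under it is not given.

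The depth of the libraries is unknown. With 5 rats a group, differences of this size passed no adjusted threshold, which does not show that the levels were equal.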
